A study of Mus musculus with 24 samples.

Results

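The comparison described here set the brains of tRNA-Phe-2-1-/- mice, in which both copies of that transfer RNA gene were deleted, against the brains of tRNA-Phe-3-1-/- mice, in which another gene of the same family was deleted from both chromosomes. Its 6 samples, replicates A, B and C of each line, were chosen by tissue and genotype from the sample titles, out of 24 in the series and 12 from brain. The remaining brain samples were 3 wild-type (WT) and 3 tRNA-Phe-1-1-/- samples, which entered the model and served as reference levels. The lines came from CRISPR-Cas9 editing of embryos on a C57BL/6N background, followed by crosses to WT mice and then breeding to homozygosity, and per the labels and the study's methods all mice were males, 10 weeks old. The deletions were constitutive, so no tissue was spared.

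A phenylalanine transfer RNA (tRNA-Phe) carries phenylalanine to the ribosome and reads its codons through the anticodon GAA. The mouse genome holds 7 tRNA-Phe genes that share this anticodon. Genes that share an anticodon but differ elsewhere in the sequence are called isodecoders, and the loss of either gene takes away one source of the same tRNA pool. RNA polymerase III transcribes these genes, and the tRNA is then charged by the phenylalanyl-tRNA synthetase and modified next to its anticodon.

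The sequences show the gene that was targeted in each line, intact as in the reference genome, and how little the genes differ. The study made deletions within these genes, and the bases lost in each line are not shown here. They were found by matching the study's guide to the reference genome GRCm39, with the ends set by the acceptor stem, and are written 5′ to 3′ with the guide's target and the adjoining AGG motif in capitals.
tRNA-Phe-2-1, chr19:11985909-11985981, plus strand: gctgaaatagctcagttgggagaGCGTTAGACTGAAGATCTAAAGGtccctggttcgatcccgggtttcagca
tRNA-Phe-3-1, chr13:22067055-22067127, minus strand: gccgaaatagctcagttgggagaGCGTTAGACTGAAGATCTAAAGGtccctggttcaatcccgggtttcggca
tRNA-Phe-1-1, chr5:125483119-125483191, minus strand: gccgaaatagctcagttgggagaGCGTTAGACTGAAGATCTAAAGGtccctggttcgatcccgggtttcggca
Each gene spans 73 bases. Counted from 1 at the 5′ end, the deleted genes had 70 bases in common. Going from tRNA-Phe-2-1 to its counterpart, the substitutions were T3C, G57A and A70G. Positions 3 and 70 face each other in the acceptor stem, and position 57 lies in the T arm. Going from tRNA-Phe-1-1, the substitutions were C3T and G70A to tRNA-Phe-2-1 and G57A alone to tRNA-Phe-3-1. The 20-base guide covered positions 24 to 43 of each gene, and the 7 genes are all listed with 0 mismatches to it, so the guide itself does not separate the lines.

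Messenger and other long RNAs were measured by sequencing of total RNA, and values are normalised counts, that is estimated reads divided by a size factor for each sample. Total reads in the 6 brains, recovered from these values, ranged from 31332770 to 46225360. Neuronal and glial markers were abundant in all 6, with Snap25 (synaptic vesicle fusion) between 32419 and 61425 and Slc1a2 (the astrocyte glutamate transporter) between 53799 and 131084 normalised counts, and the Y-linked Ddx3y stood at 2282 to 3034, as the label male requires. The labels describe tissue pieces of 3 mm and name no brain region. tRNA-Phe-3-1-/- replicate C stood apart from the other brains on the first principal component (score −79.4, against −42.0 to 39.8), with tRNA-Phe-2-1-/- replicate C next to it, so results that rest on it are given with and without it. Thalamic markers were high in replicate C of both lines (mean log2 deviation over 11 genes 2.36 and 2.08, against −0.80 to −0.59 in the other 4 brains). Choroid plexus markers were high in the same replicates (3.29 and 2.68) and also in tRNA-Phe-3-1-/- replicate A (2.00). In the remaining brains of the 2 lines they stood at −1.76 to −1.35. The part of regional make-up in the differences that follow was not tested. In these bulk samples fewer cells of a type and less RNA per cell cannot be told apart. No label gives a library or sequencing batch, so values within batches cannot be given.

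Of 19228 genes tested, 0 (0%) passed an adjusted p of 0.05 between the 2 lines (limma, Benjamini-Hochberg adjustment; lowest adjusted p 0.174), while 1910 had an unadjusted p under 0.05. Those 1910 genes divided into 1107 with higher values in tRNA-Phe-2-1-/- (5.76%) and 803 with lower values (4.18%). Groups that did not overlap, with all 3 samples of one line above all 3 of the other, were seen for 1334 genes higher in tRNA-Phe-2-1-/- (6.94%) and 1114 lower (5.79%). The median difference was 0.00 on the log2 scale and the median absolute difference 0.15. The edgeR quasi-likelihood test on recovered reads also called 0 genes (lowest adjusted p 0.168, 1913 genes at an unadjusted p under 0.05), whereas DESeq2 on the same reads called 166, of which 88 were higher and 78 lower in tRNA-Phe-2-1-/-. The differences named hereafter therefore did not pass the main test, and they are given as levels. Of the 27 genes named by lowest p or largest difference, DESeq2 called 26, the exception being Gh. Those genes were chosen for groups apart in the same samples, as 161 of the 166 DESeq2 genes also had. The count of 26 is therefore a description and not separate support.

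The genes of lowest p with higher values in tRNA-Phe-2-1-/- brains come first. Rorb, a nuclear receptor that marks layer 4 neurons of the cortex, was at 3953, 3718 and 3925 normalised counts in tRNA-Phe-2-1-/- A, B and C and at 2414, 2677 and 2458 in tRNA-Phe-3-1-/-. The groups lay well apart, with little spread in either. The log2 difference was 0.62 ± 0.09 (SE, n = 3 in each group), or 1.54-fold (limma, adjusted p = 0.174). Rorb was as high in WT brains, at 3656 to 3799, and as low in tRNA-Phe-1-1-/- brains, at 1890 to 2487. It lies on chromosome 19 at 18930609 to 19111196 (GRCm38.p6), the chromosome of tRNA-Phe-2-1.

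Syndig1, a membrane protein of excitatory synapses, was at 1919, 1590 and 1596 in tRNA-Phe-2-1-/- and at 1199, 1078 and 1162 in tRNA-Phe-3-1-/-. Its groups did not overlap, and WT (1614 to 1680) sat with tRNA-Phe-2-1-/-. The log2 difference was 0.57 ± 0.10 (SE; limma, adjusted p = 0.218). Rnf112, a brain ubiquitin ligase, was at 11867, 10978 and 12620 against 9379, 8122 and 7505, with WT at 9339 to 10402, below every tRNA-Phe-2-1-/- brain. Sinhcaf, a subunit of the SIN3 histone deacetylase complex, was at 314, 301 and 264 against 170, 184 and 155. Its WT brains (186 to 200) overlapped neither line and were closer to tRNA-Phe-3-1-/-, with a log2 difference of 0.59 ± 0.14 from WT for tRNA-Phe-2-1-/- and −0.20 ± 0.14 for tRNA-Phe-3-1-/-.

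The remaining genes named in this direction included subunits of 3 channels. Gabrd, the delta subunit of the extrasynaptic GABA-A receptor, was at 3179, 3109 and 2898 in tRNA-Phe-2-1-/- and at 2078, 2047 and 1805 in tRNA-Phe-3-1-/-. All 3 WT brains lay between the lines, at 2175 to 2679, and the log2 difference between the lines was 0.63 ± 0.12. Kcns1, a modulatory subunit of voltage-gated potassium channels, had the values 633, 496 and 639 against 334, 332 and 194. Its fold difference of 2.10 was the second largest among the 10 genes of lowest p in this direction, after Gm20458. Abcc8, the sulfonylurea receptor of ATP-sensitive potassium channels, was at 1062 to 1265 against 617 to 797, Sema7a, a membrane-anchored semaphorin, at 4471 to 5238 against 1982 to 3356, and Sel1l3 at 3081 to 3470 against 1659 to 2396. For all 3 the WT brains overlapped tRNA-Phe-2-1-/- and lay above tRNA-Phe-3-1-/-.

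Of the 10 genes named for higher values in tRNA-Phe-3-1-/- brains, 4 encode secreted proteins of the matrix or of growth factor binding. Col1a1, a chain of type I collagen, was at 207, 124 and 126 normalised counts in tRNA-Phe-2-1-/- and at 432, 629 and 1440 in tRNA-Phe-3-1-/-. Replicate C of tRNA-Phe-3-1-/- was highest by far, yet the lowest sample of that line was still over the highest of the other. The log2 difference was −2.30 ± 0.38 (limma, adjusted p = 0.218), and WT (314 to 543) was above tRNA-Phe-2-1-/- in all 3 brains. Col5a2, a chain of type V collagen, was at 173, 172 and 168 against 349, 273 and 345. Smoc1, a secreted calcium-binding matrix protein, was at 149, 183 and 162 against 380, 317 and 355, with WT at 131 to 200. Igfbp3, which binds insulin-like growth factors, was at 222, 212 and 233 against 338, 305 and 419. The 4 genes thus had no overlap between the lines, and for Smoc1 it was tRNA-Phe-3-1-/- that departed from WT (log2 difference 1.05 ± 0.17, against −0.04 ± 0.17 for tRNA-Phe-2-1-/-).

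The other 6 genes named in this direction differed in their roles. Fstl5, a secreted follistatin-like protein, was at 838, 1039 and 1069 in tRNA-Phe-2-1-/- and at 1631, 1781 and 1943 in tRNA-Phe-3-1-/-. With a log2 difference of −0.87 ± 0.13 (limma, adjusted p = 0.174), it had the lowest p in this direction among genes with a mean of at least 50, and WT (906 to 1094) sat with tRNA-Phe-2-1-/-. Marcksl1, an actin-binding protein of growing neurites, was at 885 to 1033 against 1645 to 1941, and Cntnap4, a membrane protein of interneuron terminals, at 1066 to 1266 against 1530 to 2136. Nexmif, an X-linked neurite extension factor, was at 3258 to 3368 against 4035 to 4680, Fhl1, a LIM-domain protein, at 1009 to 1250 against 1574 to 2014, and Dock8, an activator of the small GTPase Cdc42, at 103 to 127 against 172 to 227. In all 5 of these genes WT lay below every tRNA-Phe-3-1-/- brain.

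**Figure D1:**
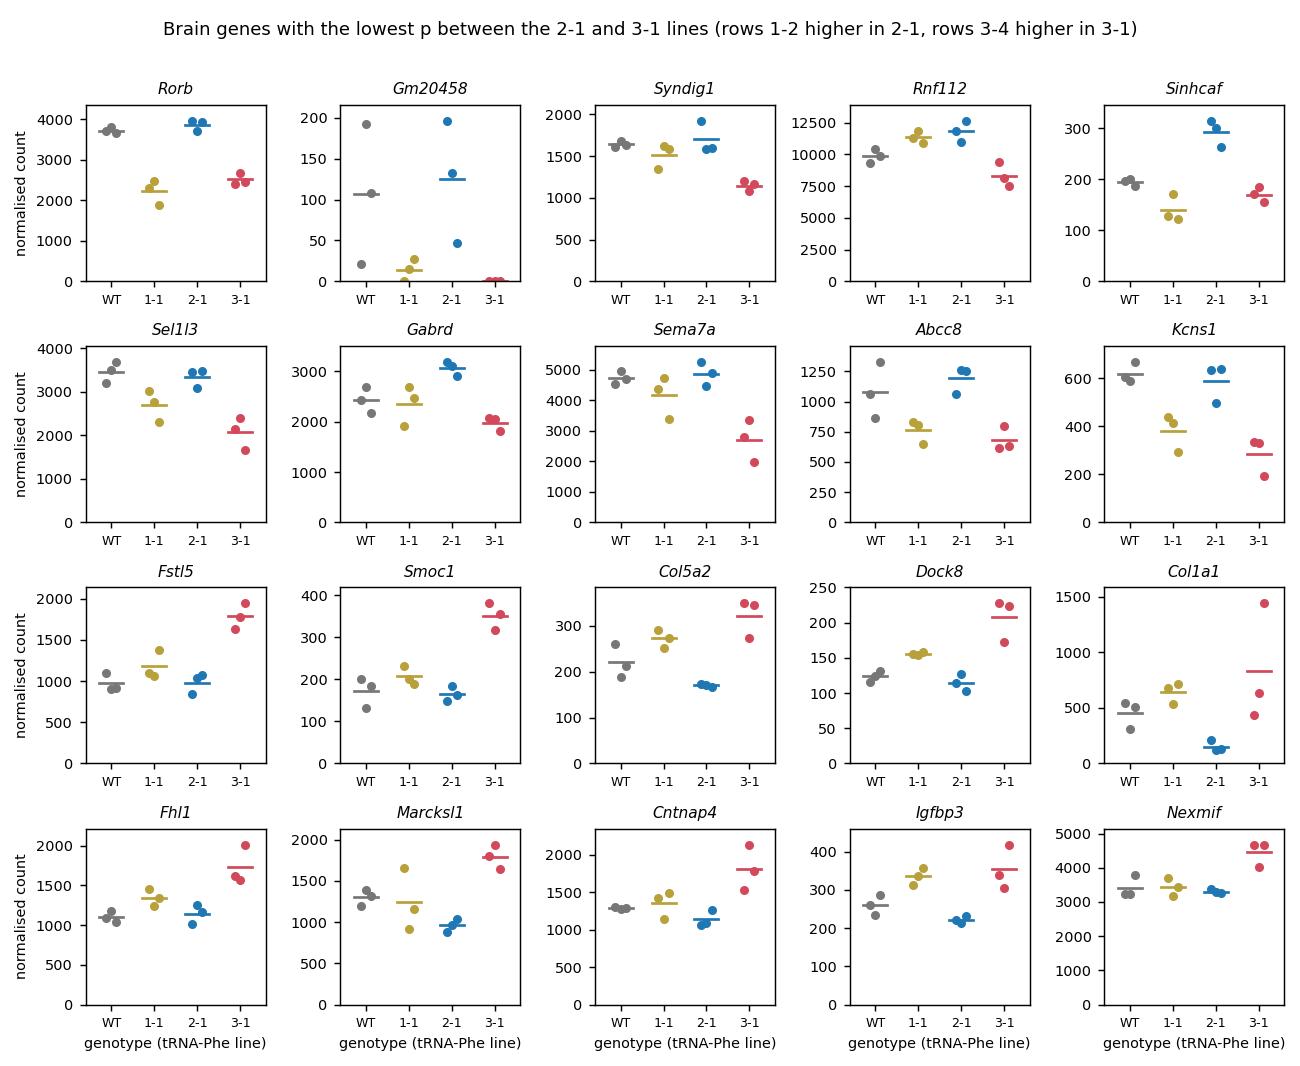
Normalised counts (vertical axes, from 0) of the 10 protein-coding genes of lowest p in each direction, for the 3 brains of each of WT and the tRNA-Phe-1-1-/- (1-1), tRNA-Phe-2-1-/- (2-1) and tRNA-Phe-3-1-/- (3-1) lines. Points are samples A, B and C from left to right and bars are means; in the upper 2 rows the 2-1 points lie above the 3-1 points, as for Rorb at 3718 to 3953 against 2414 to 2677, and in the lower 2 rows they lie below.

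These 20 genes and the 8 of largest difference came to 27 named genes, chosen for no overlap between the lines. Beside WT, which both lines share as control, 23 of the 27 had no overlap between tRNA-Phe-3-1-/- and WT (16.4% of all genes) and 10 had none between tRNA-Phe-2-1-/- and WT (11.4% of all genes). Since the genes were chosen from the same samples, these counts are a description. Both lines stood clear of WT for 7 of them, and neither did for 1. In the liver the same 2 lines were compared with 3 samples each, where 14 of the 27 genes were expressed enough to be tested. Of these, 9 had the sign seen in the brain, 0 had an unadjusted p under 0.05, and 0 had groups apart in the same direction. The difference between tissues was not tested for these genes.

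Of the 4 genes with the largest difference towards higher values in tRNA-Phe-2-1-/-, 3 are genes that hepatocytes make in quantity. Alb (serum albumin) was at 310, 599 and 877 normalised counts in tRNA-Phe-2-1-/- A, B and C and at 3.23, 9.60 and 36.5 in tRNA-Phe-3-1-/-. Serpina3k and Serpina1e, liver protease inhibitors, were at 107 to 270 against 0.873 to 3.95 and at 75.9 to 170 against 1.97 to 3.49. Cyp3a11 (a liver cytochrome P450) and Serpina1c were at 0 in all 3 tRNA-Phe-3-1-/- brains. Set against a floor of 3 reads per library, they were at least 12.4-fold and 25.8-fold higher in tRNA-Phe-2-1-/-. The fourth gene, Gm20458, was at 196, 133 and 46.5 in tRNA-Phe-2-1-/- and at 0 in all 3 tRNA-Phe-3-1-/- brains, at least 42.6-fold higher by the same floor. It was at 20.5, 192 and 108 in WT and at 0, 14.5 and 27.1 in tRNA-Phe-1-1-/-, an order over samples that differed from that of the liver genes. None of these passed the main test (adjusted p 0.323 for Alb and 0.290 for Cyp3a11).

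A list of 30 liver transcripts, written after these zeros had been seen, described the pattern further. In brain 27 were tested, 24 had no overlap between the lines with higher values in tRNA-Phe-2-1-/- and 0 the reverse (6.94% and 5.79% of all genes), and the median log2 difference was 4.39. The median moved to 5.61 with a pseudocount of 0.1 and to 2.90 with one of 5. The mean log2 deviation of the list was 0.97, 1.33 and 2.16 in tRNA-Phe-2-1-/- A, B and C and −2.65, −2.21 and −1.57 in tRNA-Phe-3-1-/-. In WT it was 2.01, 0.57 and 0.08, and in tRNA-Phe-1-1-/- it spread from −2.38 to 2.68, a wider range than that over the 6 brains of both lines. Whether liver RNA from outside the brain accounts for these values was not tested.

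Eomes, Gh, S100a9 and Lbhd2 had the largest differences in the other direction, and S100a9 is given with the leukocyte genes. Eomes, a transcription factor of olfactory bulb output neurons, was at 0, 3.35 and 2.22 in tRNA-Phe-2-1-/- and at 23.7, 404 and 56.3 in tRNA-Phe-3-1-/-. Gh, the growth hormone of the pituitary, was at 12.3, 2.23 and 2.95 against 57.1, 313 and 116, and at 0.855, 1.06 and 402 in WT. Lbhd2, from the olfactory bulb list, was at 3.08, 8.93 and 9.60 against 47.4, 55.9 and 215. For these genes the groups did not overlap, although the tRNA-Phe-3-1-/- brains differed widely from one another, with replicate A the lowest of them each time.

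Of the 11 olfactory bulb genes tested, 11 had lower values in tRNA-Phe-2-1-/-, 6 had groups that did not overlap (5.79% of all genes), and the median log2 difference was −1.68, beside 0.00 over all genes. With edgeR or DESeq2 on recovered reads the median was −2.89. Dlx1, an interneuron transcription factor, was at 266, 311 and 193 against 477, 1471 and 597. The score of this list was 2.88 in tRNA-Phe-3-1-/- replicate B, against 0.38 in A and 0.11 in C and −1.04 to −0.71 in tRNA-Phe-2-1-/-, and without replicate B the median was −0.93. Hypothalamic genes behaved alike through another sample. Of 12 tested, 11 were lower in tRNA-Phe-2-1-/-, 5 had an unadjusted p under 0.05 (4.18% of all genes) and the median was −2.07. Trh (thyrotropin-releasing hormone) was at 42.1, 65.9 and 143 against 329, 367 and 683, Pomc (the melanocortin precursor) at 33.9, 27.9 and 62.8 against 88.4, 94.3 and 158, and Avp (vasopressin) at 5.13, 1.12 and 29.5 against 409, 20.1 and 547. Here the score of tRNA-Phe-3-1-/- replicate C was 3.99, against 1.09 in A and −0.65 in B, and the median was −0.90 without that replicate and −3.16 without tRNA-Phe-2-1-/- replicate C. Midbrain dopamine genes were divided, with 3 of 7 tested higher and 4 lower in tRNA-Phe-2-1-/-. An unadjusted p under 0.05 was found for 3, all lower (4.18% of all genes). Groups were apart for 1 (5.79% of all genes), Th, the rate-limiting enzyme of dopamine synthesis, at 56.4, 71.4 and 62.8 against 126, 887 and 381. Slc18a2 and Slc6a3, the vesicular and plasma membrane transporters of dopamine neurons, had overlapping groups, and the median of the 7 genes moved from −0.58 to −0.05 without tRNA-Phe-3-1-/- replicate C and to −0.91 without replicate B. Only 2 pituitary genes could be tested, Gh and Prl (prolactin), and both were lower in all 3 tRNA-Phe-2-1-/- brains.

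Excitatory neuron markers of the cortex were higher in tRNA-Phe-2-1-/-, for 15 of 17 genes tested. The median log2 difference was 0.43, and 4 genes had an unadjusted p under 0.05, all in this direction (5.76% of all genes). Beside Rorb these included Cux1, at 5141, 5273 and 4413 against 3463, 4256 and 3172, and Cux2, at 3260, 3297 and 2413 against 1564, 2159 and 1075, transcription factors of the upper cortical layers. Etv1, a layer 5 marker, had the opposite sign and groups apart, at 1347 to 2029 against 2147 to 2345. The list's score was −1.07 in tRNA-Phe-3-1-/- replicate C and between −0.08 and 0.15 in the other 5 brains, and the median was 0.02 without that replicate and 0.67 without tRNA-Phe-3-1-/- replicate B. It was 0.25 with edgeR or DESeq2. Rorb, Cux1 and Cux2 did not depend on it for their order, since A and B of tRNA-Phe-3-1-/- also lay below all tRNA-Phe-2-1-/- brains.

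**Figure D2:**
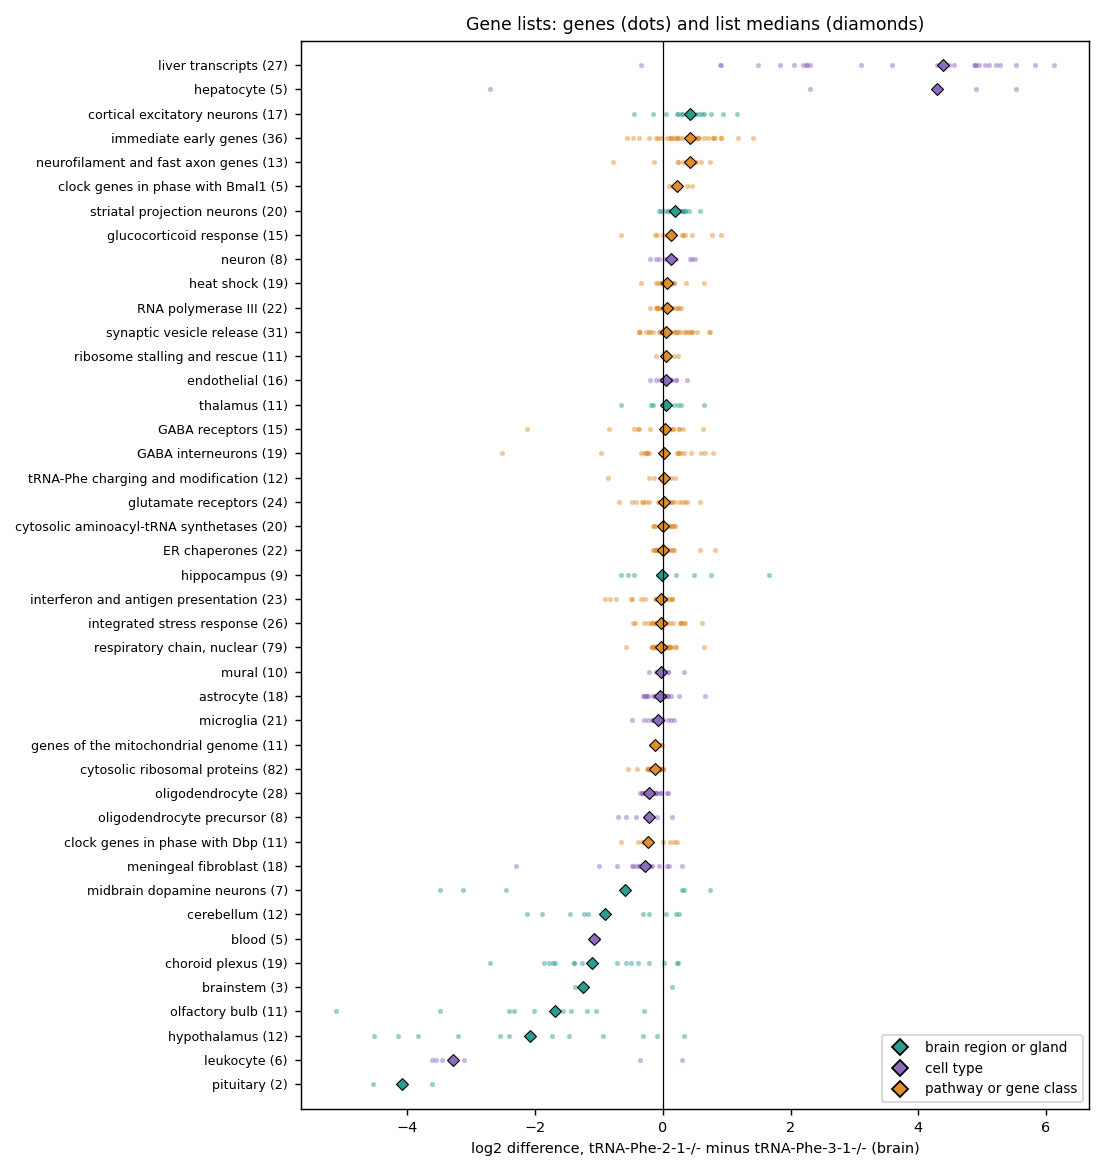
Log2 differences (tRNA-Phe-2-1-/- minus tRNA-Phe-3-1-/-, horizontal axis) of the genes tested in each list (dots, number in parentheses) and the list medians (diamonds), coloured by kind of list. Medians ran from −4.07 for 2 pituitary genes to 4.39 for liver transcripts, and most pathway lists lay near 0.

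Genes of fast-conducting axons were higher in tRNA-Phe-2-1-/- brains for 11 of 13 genes, with a median of 0.42. Nefl and Nefm, subunits of the neurofilaments that set axon calibre, were at 19886, 17006 and 20352 against 16449, 12392 and 14125 and at 2694, 2325 and 2166 against 1709, 1745 and 1583. Kcna2, an axonal potassium channel, was at 13049 to 13981 against 8518 to 11144, and Syt2, a calcium sensor of fast synapses, at 1943 to 2172 against 1081 to 1415. In total 5 of the 13 had groups apart in this direction (6.94% of all genes) and 1, Spp1, in the other. The median stayed between 0.32 and 0.50 when any one of the 6 brains was left out, and relative to WT the median was −0.14 in tRNA-Phe-2-1-/- and −0.48 in tRNA-Phe-3-1-/-.

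Synaptic genes were divided. Of 31 genes of vesicle release, 18 were higher and 13 lower in tRNA-Phe-2-1-/-, with a median of 0.06. An unadjusted p under 0.05 was found for 4, all in this direction (5.76% of all genes), namely Syt2, Rims2, Rims1 and Snap25, of release sites and fusion. These 4 were higher in all 3 tRNA-Phe-2-1-/- brains, for example Rims1 at 9863, 9956 and 8104 against 7689, 7725 and 5203. Among 15 GABA receptor genes, Gabrd and Gabrb2 (8064 to 8272 against 6684 to 7030) were higher and Gabrg1 (848 to 978 against 1136 to 2702) was lower in tRNA-Phe-2-1-/-, and the median was 0.03. Among 24 glutamate receptor genes, 13 were higher and 11 lower in tRNA-Phe-2-1-/-, and the median was 0.02. Gria1, an AMPA receptor subunit, was at 10481 to 11649 against 12376 to 14435. Grin2a, an NMDA receptor subunit, was at 21594 to 22702 against 9511 to 20203, so these 2 subunits went in opposite directions. Grin2c (1194 to 1569 against 981 to 1248) overlapped. With any one brain left out, the medians ranged across 0, from −0.01 to 0.16 for vesicle release, −0.05 to 0.13 for GABA receptors and −0.08 to 0.08 for glutamate receptors.

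Immediate early genes, which neurons induce within minutes of activity, were higher in tRNA-Phe-2-1-/- for 29 of 36, with a median of 0.43. An unadjusted p under 0.05 was found for 8, all in this direction (5.76% of all genes), and groups were apart for 5 in this direction and 1 in the other (6.94% and 5.79% of all genes). Csrnp1 was at 222, 250 and 273 against 148, 180 and 109, Ier5 at 1932, 1782 and 2319 against 1158, 1663 and 743, and Homer1, a postsynaptic scaffold with an activity-induced form, at 18668, 13623 and 11167 against 10790, 10845 and 5582. tRNA-Phe-3-1-/- replicate C had the lowest score of all 12 brains (−0.98), and the median was 0.25 without it and 0.23 without tRNA-Phe-2-1-/- replicate C. Both lines lay under WT, with medians of −0.39 and −0.70.

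The clock genes gave a small difference of opposite sign in the 2 phases. Those that peak with Bmal1 were higher in tRNA-Phe-2-1-/- for 5 of 5, with a median of 0.22 (0.15 without tRNA-Phe-2-1-/- replicate A) and 4 with groups apart (6.94% of all genes). Bmal1 itself, a core activator of the clock, was at 1841, 1648 and 1438 against 1383, 1347 and 1058, Clock, its partner, at 5379 to 5914 against 4995 to 5346, and Nfil3, a repressor, at 268 to 319 against 245 to 249. Genes that peak with Dbp were lower for 8 of 11, with a median of −0.22 (−0.12 without tRNA-Phe-3-1-/- replicate B), among them the repressors Per2, at 532, 401 and 440 against 686, 671 and 792, and Bhlhe41, at 467 to 638 against 628 to 773. Per3 went the other way, at 1628 to 1739 against 1258 to 1620. WT was close to tRNA-Phe-3-1-/- for Per2, at 582 to 931.

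Blood transcripts and 5 of the 6 leukocyte transcripts tested were lower in tRNA-Phe-2-1-/- brains. All 5 erythroid genes had an unadjusted p under 0.05 in this direction (4.18% of all genes), with a median of −1.07. Hbb-bs, the main beta globin, was at 5961, 7292 and 3160 in tRNA-Phe-2-1-/- and at 9296, 7785 and 17964 in tRNA-Phe-3-1-/-, Hba-a2, an alpha globin, at 3005, 3801 and 1649 against 4531, 4275 and 9056, and Hbb-bt at 734, 970 and 440 against 1109, 1039 and 2348. Globin genes share near-identical copies, so the division of reads among them is uncertain. Replicate C was the lowest of one line and the highest of the other, and the median was −0.72 without either.

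Of 6 leukocyte genes tested, 5 had groups apart and lower in tRNA-Phe-2-1-/- (5.79% of all genes). They were led by neutrophil granule and calcium-binding genes, S100a9 at 13.3, 4.46 and 23.6 against 48.5, 288 and 243, S100a8 at 8.21, 6.70 and 19.9 against 39.9, 182 and 127, and Ngp at 6.15, 2.23 and 4.43 against 18.3, 158 and 64.2. S100a9 differed by −3.61 ± 0.83 on the log2 scale (limma, adjusted p = 0.323). Of the 6 genes, 1 went the other way. Normalised counts summed over all 11 listed leukocyte genes overlapped, at 2676.7 to 2958.5 in tRNA-Phe-2-1-/- against 2487.3 to 3077.2 in tRNA-Phe-3-1-/-. The median of the 6 was −3.29, between −4.05 and −2.75 with any one brain left out and −1.74 over the genes with a mean of at least 50. Among 23 genes of interferon response and antigen presentation the median was −0.02, and the 3 of lowest p were those of class II antigen presentation, H2-Ab1 (22.2 to 33.5 against 34.5 to 63.2), Cd74 (47.3 to 83.7 against 89.4 to 117) and H2-Aa, whose groups overlapped. The globin genes were lower in tRNA-Phe-2-1-/- as well, and the part of blood RNA in the leukocyte values was not tested.

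Meningeal fibroblast genes were lower in tRNA-Phe-2-1-/- for 15 of 18, with a median of −0.27 (−0.09 without tRNA-Phe-2-1-/- replicate C and −0.49 without tRNA-Phe-3-1-/- replicate B), but beyond Col1a1 only Col1a2 (492 to 709 against 726 to 1225) had groups apart. Dcn, a matrix proteoglycan, was at 313, 363 and 363 against 1247, 287 and 933. Oligodendrocyte precursors were represented by 8 genes with a median of −0.22 (−0.11 without tRNA-Phe-3-1-/- replicate C and −0.13 without tRNA-Phe-2-1-/- replicate B, but −0.41 without tRNA-Phe-2-1-/- replicate C and −0.34 without tRNA-Phe-3-1-/- replicate A), where Pdgfra, the growth factor receptor that marks these cells, was at 1796, 1909 and 1840 against 2684, 1938 and 2884, C1ql1 at 60.5 to 91.5 against 121 to 133, and Lhfpl3 at 766 to 1343 against 1279 to 1939. Of 18 astrocyte genes, 9 were higher and 9 lower, with a median of −0.05 that ranged from −0.15 to 0.07 with any one brain left out. The 2 glutamate transporters had opposite signs, Slc1a2 at 98659, 131084 and 96146 against 75052, 76862 and 53799 and Slc1a3 at 13877, 13031 and 11845 against 14826, 16679 and 16589, while Apoe (lipid transport) was at 29610 to 31654 against 33835 to 40533.

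**Figure D3:**
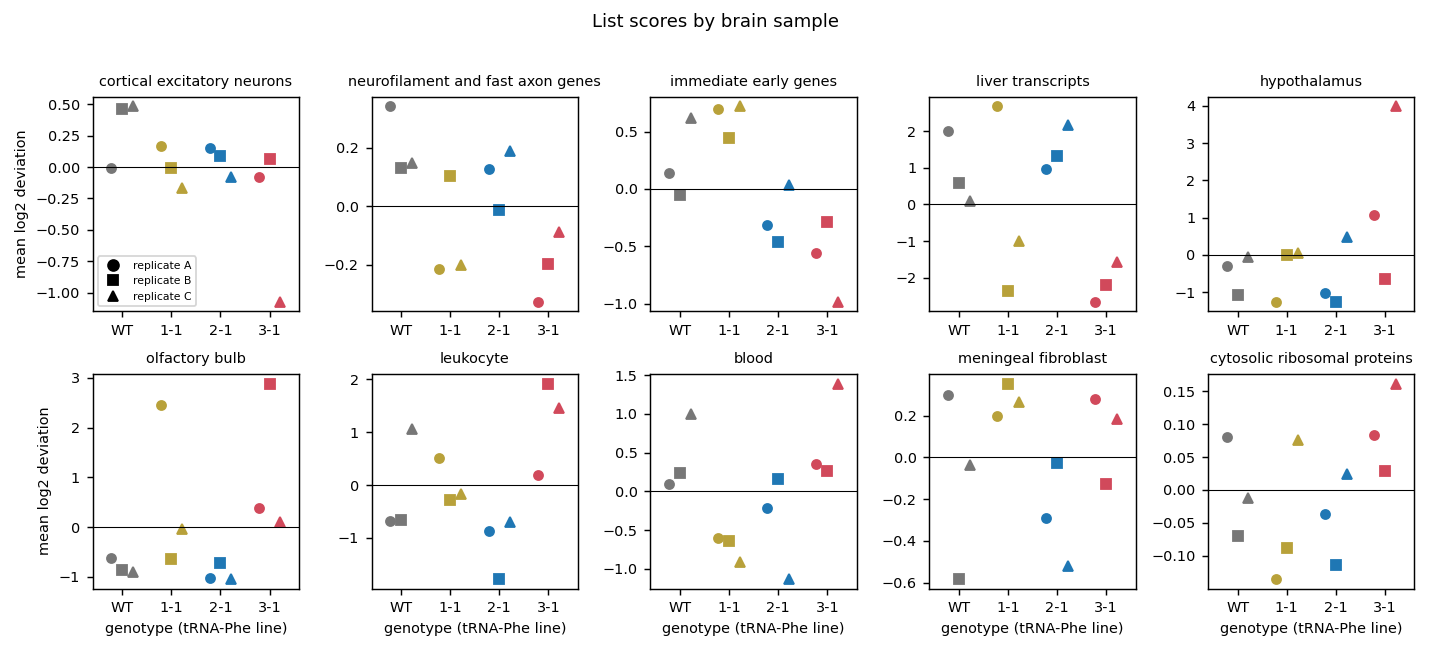
Scores of 10 gene lists in each of the 12 brain samples, as the mean log2 deviation of the genes in a list from their average over the 12 brains (vertical axes), by genotype (WT, and the 1-1, 2-1 and 3-1 lines) with replicate A as circle, B as square and C as triangle. tRNA-Phe-3-1-/- replicate C stood at −1.07 for cortical and 3.99 for hypothalamic genes, and replicate B at 2.88 for olfactory bulb genes.

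Genes that work on tRNA-Phe or on translation differed little. The 12 genes of tRNA-Phe charging and modification had a median of 0.02 (−0.01 to 0.03 with any one brain left out), with 7 higher and 5 lower in tRNA-Phe-2-1-/-. Farsa and Farsb, the subunits of the cytosolic phenylalanyl-tRNA synthetase, were at 1004 to 1091 against 857 to 1047 (log2 difference 0.13 ± 0.10) and at 1270 to 1464 against 1250 to 1640 (−0.14 ± 0.10), with overlapping groups. Trmt5, which methylates the guanosine next to the anticodon, was at 361, 305 and 318 against 303, 272 and 288, with groups apart and a log2 difference of 0.19 ± 0.10. Wdr6, whose protein partners the methyltransferase FTSJ1 in modifying the wobble base of tRNA-Phe, was at 3282, 4168 and 4991 against 7169, 5030 and 11210. Its log2 difference was −0.86 ± 0.28 (limma, adjusted p = 0.391), and Ftsj1 was at 324 to 397 against 322 to 375. Of 20 cytosolic aminoacyl-tRNA synthetases, 11 were higher and 9 lower, with a median of 0.01. The log2 difference was 0.15 ± 0.06 for Wars1, whose groups did not overlap, and 0.19 ± 0.12 for Vars1, whose groups did.

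For the RNA polymerase III apparatus, 15 of 22 genes were higher in tRNA-Phe-2-1-/-, with a median of 0.06 that was 0.02 without tRNA-Phe-3-1-/- replicate C, 0.03 without tRNA-Phe-2-1-/- replicate A and 0.04 without replicate B. Its 3 lowest p were those of Maf1, the repressor of the polymerase, at 1620, 1910 and 1702 against 1503, 1521 and 1345, of Gtf3c1, the largest subunit of TFIIIC, which binds the promoter inside tRNA genes, at 6432, 7054 and 6105 against 5653, 5619 and 4786, and of Brf1, a subunit of TFIIIB, at 963, 1182 and 1073 against 874, 942 and 926. Groups were apart for these 3 (6.94% of all genes), with log2 differences of 0.26 ± 0.08, 0.29 ± 0.11 and 0.23 ± 0.08. Among 11 genes for stalled ribosomes, 10 were higher, with a median over the list of 0.05 (0.02 without tRNA-Phe-2-1-/- replicate A) and groups apart for Gtpbp2, a factor for stalled ribosomes, at 1900, 2011 and 1879 against 1724, 1711 and 1477. Hbs1l and Nemf had overlapping groups. The 26 genes of the integrated stress response, by which unread codons or uncharged tRNA can slow translation, had a median of −0.03 with 0 at an unadjusted p under 0.05. Ddit3, a transcription factor of that response, was at 545 to 600 against 450 to 498, while Ppp1r15a (265 to 317 against 268 to 536) and Pck2 (518 to 728 against 614 to 737) overlapped.

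Cytosolic ribosomal protein genes were lower in tRNA-Phe-2-1-/- for 80 of 82, by a small amount. The median was −0.12, 27 had groups apart in this direction (5.79% of all genes), and the range of medians with any one brain left out was −0.16 to −0.08. Rps24 was at 4793, 4639 and 4809 against 5361, 5770 and 5781, Rpl28 at 2305, 2061 and 2216 against 2358, 2716 and 2646, and Rpl38 at 2976, 2840 and 3242 against 3416, 3401 and 3509. Relative to WT the median was −0.04 in tRNA-Phe-2-1-/- and 0.08 in tRNA-Phe-3-1-/-, so the 2 medians lay on either side of WT. The list scores of single WT brains (−0.07 to 0.08) overlapped those of tRNA-Phe-2-1-/- (−0.11 to 0.02) and of tRNA-Phe-3-1-/- (0.03 to 0.16). Ribosomal protein genes have many processed copies, and the share of reads assigned to each gene is uncertain to that extent. Protein-coding entries of the mitochondrial genome, of which the list held 11, were also lower in 11 of 11, with a median of −0.12 and 0 groups apart. Their score was 0.08, 0.17 and −0.24 in tRNA-Phe-2-1-/- A, B and C and 0.05, 0.15 and 0.10 in tRNA-Phe-3-1-/-. Only replicate C of tRNA-Phe-2-1-/- thus lay below the scores of the other line.

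The genes beside each deleted tRNA gene were examined for local differences. In the build of the files, GRCm38.p6, RefSeq places the gene deleted in tRNA-Phe-2-1-/- on chromosome 19 at 12008545 to 12008617 and the one deleted in tRNA-Phe-3-1-/- on chromosome 13 at 21882885 to 21882957. Within 1 Mb of tRNA-Phe-2-1, 16 genes were tested and the median log2 difference was −0.03. An unadjusted p under 0.05 was found for 1 of the 16, higher in tRNA-Phe-2-1-/- (5.76% of all genes). The nearest of the 16 was Osbp, an oxysterol-binding protein, 14.4 kb away, at 2228 ± 86.4 against 2227 ± 145 (SD, n = 3 each; log2 difference 0.0022, SE 0.09). Patl1, an mRNA decapping factor 63.4 kb away, was at 335 ± 19.3 against 376 ± 34.4, and Stx3, a syntaxin of membrane fusion at 187 kb, at 1012 ± 57.7 against 856 ± 60.5 with groups apart (0.24 ± 0.09; limma, adjusted p = 0.416). On the other side Mpeg1 (−0.22 ± 0.13), Dtx4 (0.04 ± 0.16) and Fam111a (0.07 ± 0.19), more than 450 kb away, had overlapping groups.

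**Figure D4:**
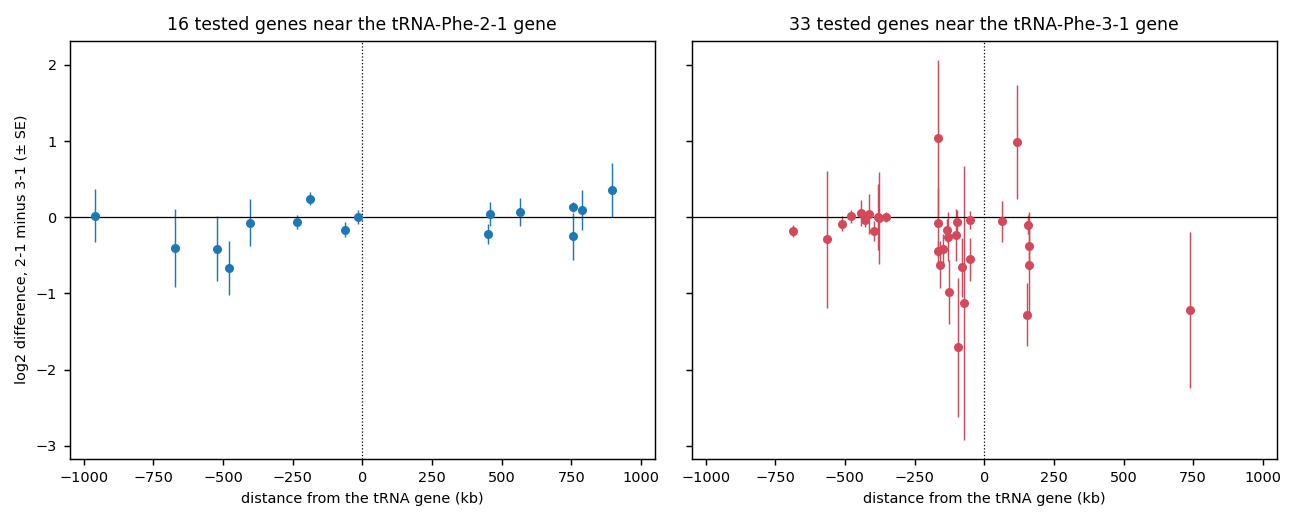
Log2 difference with its standard error (tRNA-Phe-2-1-/- minus tRNA-Phe-3-1-/-, vertical axis) of genes within 1 Mb of the deleted tRNA-Phe-2-1 gene (left, 16 genes) or tRNA-Phe-3-1 gene (right, 33 genes) against distance from the tRNA gene in kb. On the left the values lie between −0.67 and 0.36, and on the right the histone genes within about 170 kb lie mostly below 0, with wide errors for those of low level.

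Around tRNA-Phe-3-1, which sits in the large histone cluster, 33 genes were tested and the median was −0.18. An unadjusted p under 0.05 was found for 4, all lower in tRNA-Phe-2-1-/- (4.18% of all genes), and groups were apart for 7, again all lower (5.79% of all genes). Of 19 histone genes among them, 18 had lower values in tRNA-Phe-2-1-/-, with a median of −0.42. Their median relative to WT was −0.48 in tRNA-Phe-2-1-/- and 0.03 in tRNA-Phe-3-1-/-, so the line with the deletion on chromosome 19 lay farther from WT in this median. The nearest genes were H2ac24 (49.4 kb), at 94.3 ± 13.3 against 141 ± 38.7, H4c18 (50.7 kb), at 1393 ± 188 against 1431 ± 197, and H2bc23 (72.7 kb), with values from 0 to 259 in both lines. On the far side Zfp184, a zinc finger gene 62.1 kb away, was at 118 to 144 against 124 to 145, Prss16 at 18.9 ± 6.95 against 13.6 ± 14.7, and H2bc12 at 32.2 ± 19.1 against 73.4 ± 25.2 (log2 difference −1.28 ± 0.41; limma, adjusted p = 0.383). Replication-dependent histone mRNAs end without a poly(A) tail and the genes are near-identical copies, so their estimates are uncertain. In the liver 14 of the 15 histone genes tested were lower in tRNA-Phe-2-1-/-, with a median of −0.63. Some cell division genes far from the deleted genes' lists were lower there as well. Examples are Ccne1 (log2 difference −1.79 ± 0.36), Prc1 (−2.37 ± 0.63) and Cenpe (−1.93 ± 0.53), none past the adjusted threshold. They were picked from the liver genes of lowest p, and genes going the other way were not counted. The part of cell division in the liver histone values was not tested.

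A further 3 genes outside the rule for named genes are added, chosen after their values were seen. Vmn2r1, a receptor of the vomeronasal family, had the lowest p of all (limma, adjusted p = 0.174) at a low level, with 5.13, 7.81 and 10.3 normalised counts in tRNA-Phe-2-1-/-, 33.4, 62.0 and 41.5 in tRNA-Phe-3-1-/- and 25.4 to 27.1 in WT. The pseudogenes Gm2446 and Gm2436, on chromosome 12, were read in a complementary manner. Gm2446 was at 146, 117 and 149 in tRNA-Phe-2-1-/- and at 0, 70.7 and 0 in tRNA-Phe-3-1-/-, whereas Gm2436 was at 0 in all 3 tRNA-Phe-2-1-/- brains and at 167, 0 and 118 in tRNA-Phe-3-1-/-. Replicates A and C of tRNA-Phe-3-1-/- thus differed in this pair from replicate B and from WT, in which Gm2436 was also at 0.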

How the data were processed

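Total RNA of 12 brains (3 per genotype) was sequenced by the authors. Per the study's methods, strand-specific reads were trimmed with Trim Galore, aligned with STAR to GRCm38.p6 and quantified with Salmon. The deposited signal, named normalised count here, is the authors' estimated read count divided by a size factor for each sample. Dividing a column by its smallest value above 0 returned whole numbers for 100% of values, and these recovered reads gave depths and count tests. Recovered reads were tested with edgeR 4.0.16 and DESeq2 1.42.0 as alternatives. Reads that Salmon divides between close copies are least certain.

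The test was that of limma (version 3.58.1, R 4.3.3), run on the log2 of the normalised count plus a pseudocount of 1 in all 12 brains, with genotype as the model and a variance trend, for genes with a mean of at least 10. P-values are two-sided and adjusted over all 19228 genes. With 3 against 3, an exact permutation test cannot go under 0.1. Fold changes on this scale understate those of low genes. Per the study's methods, mice matched for age and genotype came from different litters, while the labels do not give the litter of each sample. The p-values measure the spread between these samples. No pair of replicates differed by as little as sampling noise.

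Samples with the same letter in the 2 lines deviated together from their group means (correlation over genes 0.132 for A, 0.205 for B and 0.492 for C, each over 0.1), so the letters were treated as pairing the samples in a fit with a replicate block. This comes from the data and does not show that the letters pair the samples. A of tRNA-Phe-2-1-/- correlated more with B of tRNA-Phe-3-1-/- (0.263), and B of tRNA-Phe-2-1-/- correlated with A of tRNA-Phe-3-1-/- at 0.138.

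Named genes were the 10 protein-coding genes of lowest p and the 4 of largest difference in each direction (mean of at least 50 over the 6 samples, no overlap between lines), the 3 of lowest p in each list described (1 of which is not reported here), and the 3 nearest tested genes on each side of each deleted gene. The comparison and the 25 lists described were chosen with earlier results of these data known, and the liver transcript list after its values were seen. A further 17 lists of cell types, regions and pathways had 0 genes past the limma threshold (DESeq2 called Alb and Fgb of the hepatocyte list) and medians from −1.25 (brainstem) to 4.29 (hepatocyte). Gene symbols came from the GENCODE annotation of GRCm39 (93.2% of identifiers matched) and positions of the tRNA genes from RefSeq for GRCm38.p6, matched by chromosome and by the spacing to the next tRNA-Phe gene. The guide came from the study's supplement. Deposited comparison tables, with the authors' fold changes and s-values, were not used. The procedure was tested on simulated data.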

Additional observations from a re-analysis of the deposited data

Results flagged for a closer look

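Sel1l3 was flagged because its difference between the 2 lines had opposite signs in the brain and the liver. Its log2 difference, tRNA-Phe-2-1-/- minus tRNA-Phe-3-1-/-, was 0.71 ± 0.13 in the brain and −0.30 ± 0.14 in the liver. Alb was flagged for the same reason, at 5.52 ± 1.44 in the brain and −0.45 ± 0.28 in the liver. The difference between the tissues was not tested, and neither gene passed the adjusted threshold in either tissue with limma. In the liver neither had an unadjusted p under 0.05 (limma), as for 0 of the 27 genes named by lowest p or largest difference. In the brain DESeq2 called both, with adjusted p of 0.00202 for Sel1l3 and 0.0382 for Alb.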

How the results depend on the processing

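The count of 0 genes past the adjusted threshold stayed 0 under other pseudocounts, filters, quantile normalisation, trimmed-mean rescaling, edgeR and the replicate block, which changed no call (0 genes, 2083 at an unadjusted p under 0.05). It was 1 with no variance trend (Vmn2r1), 6 with only the 6 samples of the 2 lines (liver transcripts such as Serpina1c and Serpina3k) and 166 with DESeq2, and 0 to 2 with any one replicate left out, the 2 being Gm2446 and Gm2436 without tRNA-Phe-3-1-/- replicate B. The cause of the DESeq2 count was not tested. The count at an unadjusted p under 0.05 (1910) lay between 1295 and 2729 with one replicate left out. Of the 105 named genes under 17 alternatives, 1762 of 1776 values kept their direction. The reversed values were near 0 or in histone genes. Osbp was −0.025 with quantile normalisation, −0.0014 with edgeR, −0.000906 with DESeq2 and −0.0440 to 0.0496 with one replicate left out. H2bc23 was 0.10 with edgeR, 0.13 with DESeq2 and −2.54 to 1.36 with one replicate left out. Leaving out one replicate gave −0.0503 to 0.150 for Dtx4, −0.0309 to 0.129 for Fam111a, −0.129 to 0.0780 for H4c18 and −0.119 to 0.0205 for Zfp184. Genes near 0 reads are also limited by depth.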
